A study of Mus musculus with 8 samples.

Results

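The 6 genes described here are the chemokine ligands Cxcl1, Cxcl2, Cxcl3 and Cxcl5 and the receptors Cxcr2 and Ackr1, taken by symbol from the 27998 genes of a single-cell RNA-seq series of mouse left ventricle. All hearts came from male C57BL/6 mice aged 10 to 12 weeks. In the IR group the left anterior descending coronary artery was tied for 30 min and then released, and in the sham group the artery was not tied. Tissue was taken 6 h after either operation, and cells of 3 hearts were pooled in each sample. The labels title the 4 sham samples IR0h and the 4 IR samples IR6h, so the titles read as time points (0 and 6 h) where the protocol gives both groups the same time. The 4 samples of each group share 1 matrix that does not tell them apart, so there is 1 library per condition, no test between conditions could be made, and every interval below is a 95% interval for counting error only.

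The sham matrix held 11620 barcodes and 58653308 unique molecular identifiers (UMIs, 1 per captured transcript), and the IR matrix held 8539 barcodes and 75033226 UMIs. Filtering and removal of likely doublets left 10319 sham cells and 7696 IR cells, and 30 barcodes occurred in both matrices. Cells were clustered without any CXC gene, so the members had no part in the grouping, and 11 named classes were set from marker UMIs, each called "-like". Levels are given as CPM, the counts of a gene scaled to the same UMI total (1e6) in every class. B cell-like cells, which should lack these ligands, served as the level that free RNA gives. In IR they held 538 CPM of Cxcl2, 110 of Cxcl3, 74.7 of Cxcl1 and 32.5 of Cxcl5, against 44.3, 0, 18.6 and 0 CPM in sham. A class near those values was read as background. This rule is in CPM and was not adjusted for depth per cell. In IR the median was 3335 UMIs in B cell-like, 3905 in neutrophil-like, 11520.5 in macrophage/monocyte-like and 13248 in fibroblast-like cells.

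CXC chemokines carrying an ELR motif draw neutrophils out of the blood by binding CXCR2, a G-protein-coupled receptor on the neutrophil surface. Mice lack the human gene CXCL8, and Cxcl1, Cxcl2, Cxcl3 and Cxcl5 serve this role. ACKR1, the Duffy antigen receptor, binds many chemokines without signalling through G proteins and is known from venular endothelium, where it carries chemokines across the vessel wall, and from red cells. In GRCm38 (mm10, GENCODE M21 annotation) the 4 ligand genes lie on the plus strand of chromosome 5: Cxcl5 at 90759360 to 90761624, Cxcl3 at 90786103 to 90789600, Cxcl1 at 90891241 to 90893115 and Cxcl2 at 90903871 to 90905938. Cxcr2 lies at 74153989 to 74161246 on the plus strand of chromosome 1 and Ackr1 at 173331886 to 173333750 on its minus strand. All 6 are protein-coding.

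Promoter sequences from RefSeq (GRCm38.p6) matched 5 of the 6 members, all but Cxcl5. The 250 bases before the RefSeq start of Cxcl1, Cxcl2 and Cxcl3 are shown because these ligands were higher together in several classes and share a motif there. Capitals mark GGGAATTTCCC, the longest run of bases that all 3 windows share, which has the form of a kappa B sequence of the kind bound by NF-kB factors. The regions are chr5:90890995-90891244, chr5:90903649-90903898 and chr5:90785851-90786100, all on the plus strand.
Cxcl1: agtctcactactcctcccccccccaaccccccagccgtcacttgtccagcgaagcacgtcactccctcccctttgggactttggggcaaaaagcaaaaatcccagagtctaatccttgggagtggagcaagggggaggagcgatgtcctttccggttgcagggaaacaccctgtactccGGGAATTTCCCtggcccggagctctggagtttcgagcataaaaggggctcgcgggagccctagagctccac
Cxcl2: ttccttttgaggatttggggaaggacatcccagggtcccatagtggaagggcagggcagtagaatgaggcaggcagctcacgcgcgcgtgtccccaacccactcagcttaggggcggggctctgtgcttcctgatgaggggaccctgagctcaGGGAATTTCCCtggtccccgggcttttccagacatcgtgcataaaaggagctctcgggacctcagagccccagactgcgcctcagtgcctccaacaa
Cxcl3: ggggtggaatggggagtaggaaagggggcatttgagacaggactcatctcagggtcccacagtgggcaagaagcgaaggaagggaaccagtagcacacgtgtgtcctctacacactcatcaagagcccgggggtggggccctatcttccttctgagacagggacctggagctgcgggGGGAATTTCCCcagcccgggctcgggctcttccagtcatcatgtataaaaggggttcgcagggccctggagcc
The run began 71 bases before the start in Cxcl1, 97 in Cxcl2 and 73 in Cxcl3. Searched on both strands, it was present in 14 of 32851 promoter windows of the same length, or 0.0426%, a count that includes the 3 windows it was read from. ATAAAA, which resembles the core of a TATA box, was present in the same 3 promoters and in 17% of all windows. TGANTCA, an AP-1 sequence held by 6.75% of windows, was in none of the 5 member promoters, and the windows of Cxcr2 and Ackr1 held none of the 3 motifs. These matches describe letters and not bound sites.

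Over the kept cells, the 4 ligands together had 141230 UMIs in sham and 1096799 in IR. In sham, 71.2% of them lay in macrophage/monocyte-like cells and 21.3% in fibroblast-like cells, with 2.0% in neutrophil-like cells. In IR, 48.7% lay in neutrophil-like cells, 31.7% in macrophage/monocyte-like cells and 18.3% in fibroblast-like cells. Neutrophil-like cells numbered 237 in sham and 2304 in IR, or 2.30% and 29.9% of the kept cells, so the ligand totals moved with the number of these cells as well as with their level per cell.

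**Figure D1:**
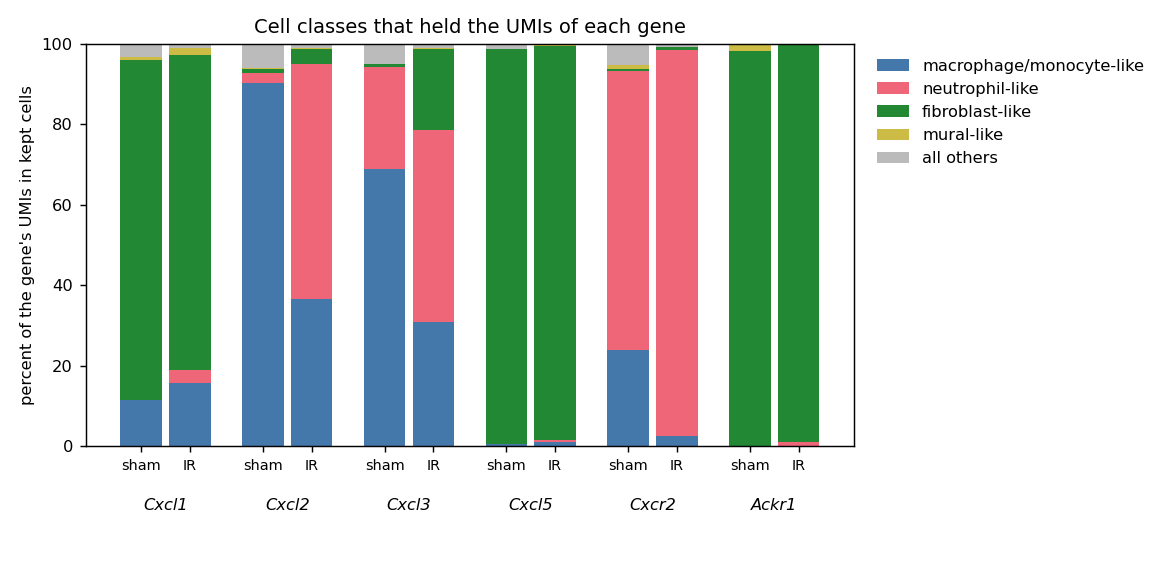
Stacked bars give, for each gene in the sham and IR libraries, the percent of its UMIs in kept cells (vertical axis) that each cell class held. Cxcl2 passed from 90.3% in macrophage/monocyte-like cells of sham to 58.6% in neutrophil-like cells of IR, while Cxcl5 and Ackr1 lay in fibroblast-like cells in both libraries.

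Cxcl1 was a fibroblast-like ligand in both libraries. Fibroblast-like cells held 84.6% of its UMIs in sham and 78.4% in IR, at 1720 CPM (1700 to 1740) and 3609 CPM (3584 to 3635). The ratio of IR to sham was 2.1-fold, a log2 ratio of 1.07 (1.05 to 1.09). It was under 2-fold, at 0.90 and 0.92 on the log2 scale, with cells typed by their own marker UMIs and as a mean over cells. Mural-like cells, which hold pericytes and smooth muscle, had 100 CPM in sham and 1334 CPM in IR, a 13.3-fold ratio. In macrophage/monocyte-like cells the levels were 217 and 682 CPM and in neutrophil-like cells 46.0 and 314 CPM. Endothelial-like cells, at 119 and 217 CPM, had the lowest ratio of the 9 classes with at least 50 cells in both libraries, 1.83-fold. The IR levels of these classes were 2.91 to 48.3 times the B cell-like level.

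Cxcl2, the ligand with the most UMIs, was high in both myeloid classes. In macrophage/monocyte-like cells it had 5351 CPM in sham and 12782 CPM in IR, a log2 ratio of 1.26 (1.25 to 1.27). In neutrophil-like cells it had 5671 CPM (5459 to 5888) in sham, close to the sham macrophage/monocyte-like level, and 45716 CPM in IR, a log2 ratio of 3.01 (2.96 to 3.07). After each cell was thinned to 1000 UMIs to equalise depth, 70.9% of sham and 99.1% of IR neutrophil-like cells kept a UMI of Cxcl2, against 66.0% and 83.1% of macrophage/monocyte-like cells and 4.95% and 40.1% of B cell-like cells. Of the IR UMIs of Cxcl2, 58.6% were neutrophil-like and 36.5% macrophage/monocyte-like, and with an upper limit of 2500 genes per cell the shares were 86.2% and 12.4%. Cxcl2 in fibroblast-like cells was 61.5 CPM in sham and 1399 CPM in IR. That IR level was 2.60 times the B cell-like one, but the thinned share of cells with a UMI, 37.6%, did not exceed the B cell-like share. As counted, 94.7% of fibroblast-like and 78.2% of B cell-like cells of IR had a UMI, at medians of 13248 and 3335 UMIs per cell. Thinning removes more of a deeper cell, so no order of these classes is read from the shares, and the part of free RNA in them was not tested. Endothelial-like (706 CPM), T cell-like (488) and dendritic-like (827) cells of IR lay near the B cell-like 538 CPM.

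Cxcl3 was nearly absent in sham and came from 3 classes in IR. Neutrophil-like cells had 184 CPM (148 to 227) in sham and 6218 CPM in IR, a log2 ratio of 5.08 (4.78 to 5.40). In sham those 88 UMIs were in 2.53% of the cells. Macrophage/monocyte-like cells had 13.3 and 1804 CPM, a log2 ratio of 7.08 (6.90 to 7.27). Fibroblast-like cells had 3 UMIs in sham and 27013 in IR, 0.18 and 1260 CPM, so the log2 ratio of 12.78 has the interval 11.23 to 15.06. The IR UMIs of Cxcl3 were 47.7% neutrophil-like, 30.8% macrophage/monocyte-like and 20.3% fibroblast-like.

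Cxcl5 was the most restricted ligand. Fibroblast-like cells held 98.3% of its UMIs in sham and 98.1% in IR, with 173 and 66807 UMIs, or 10.3 CPM (8.85 to 12) and 3117 CPM (3093 to 3140). The log2 ratio was 8.24 (8.02 to 8.46). In IR the macrophage/monocyte-like level of 26.6 CPM and the neutrophil-like level of 32.9 CPM lay near the B cell-like level of 32.5 CPM. As counted, 17.8% of macrophage/monocyte-like and 10.8% of B cell-like cells of IR had a UMI. After thinning 1.80% and 4.05% did, so the order of these 2 classes depends on depth. Mural-like cells had 101 CPM in IR and 0 UMIs in sham, a 65.4-fold ratio when the sham count is set at a floor of 3 UMIs. The lower counting limit of this log2 ratio, from the 0 itself, was 5.71. Of the 197 IR mural-like cells, 99 fell in a subcluster led by neutrophil markers. Without those cells the mural-like Cxcl5 level in IR was below the B cell-like level, as given below.

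**Figure D2:**
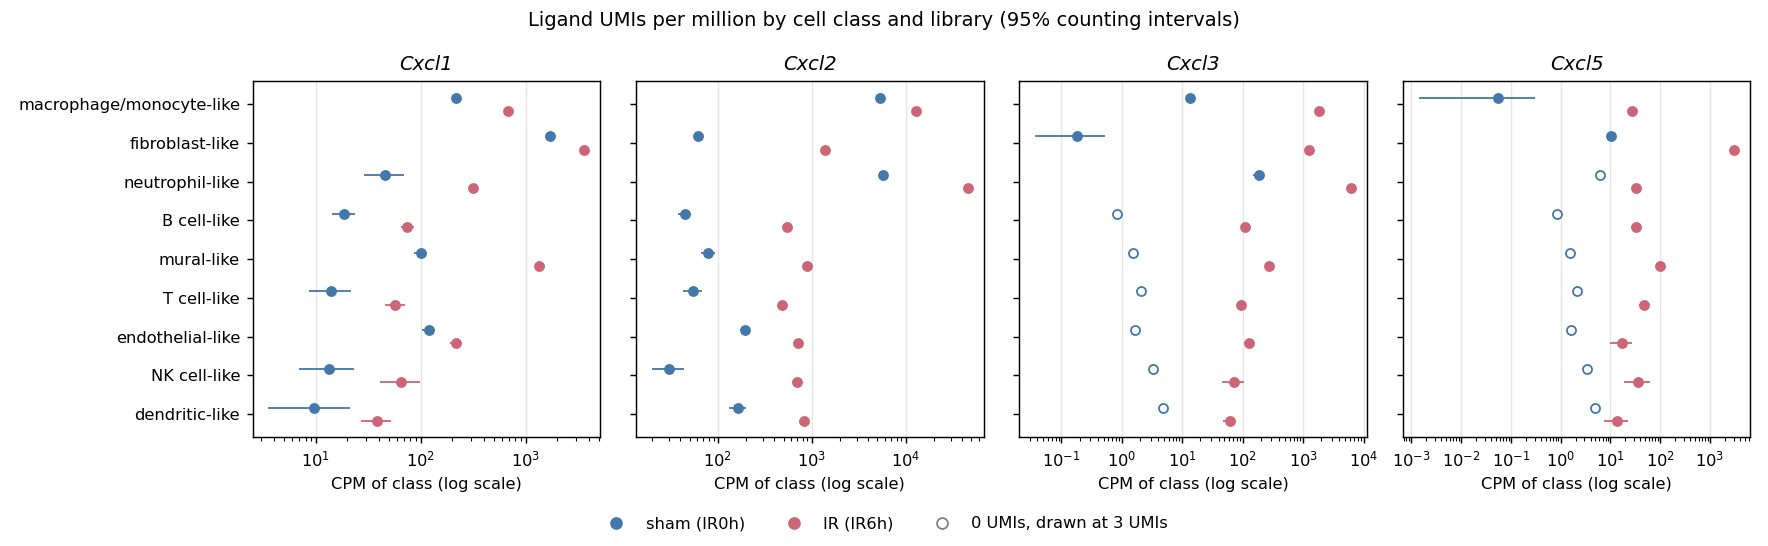
Points give CPM (log axis) of each ligand in the 9 classes with at least 50 cells in both libraries, blue for sham and red for IR, with 95% counting intervals, and open points stand for 0 UMIs drawn at 3. Fibroblast-like cells lead for Cxcl1 and Cxcl5, and neutrophil-like and macrophage/monocyte-like cells lead for Cxcl2 and Cxcl3.

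At least 2-fold higher levels in IR were found for 4 of 4 ligands in macrophage/monocyte-like cells, where 9.93% of all genes with at least 10 UMIs passed the same ratio and 14.2% were at least 2-fold lower. They were found for 4 of 4 in fibroblast-like cells, where 12.3% of genes passed and 16.7% were lower, and for 4 of 4 in neutrophil-like cells, where 10.5% passed and 29.7% had a ratio or a bound at least 2-fold lower. Of those 2833 neutrophil-like genes, 1134 had 0 UMIs in the small sham sum and stood lower only through the floor of 3 UMIs, which shows no lower level in IR, and the other 1699 were 17.8% of the genes compared. Among the 2003 genes with at least 20 expected UMIs in each library, 17.9% were at least 2-fold higher and 11.7% lower, and the median log2 ratio was -0.05 where it was -0.43 with the first filter. These counts include levels that are those of the background: Cxcl5 in IR was at 26.6 CPM in macrophage/monocyte-like and 32.9 CPM in neutrophil-like cells, against 32.5 CPM in B cell-like cells. All 4 ligands passed in mural-like cells too (9.1% of genes), and in B cell-like (8.18%), T cell-like (8.91%), NK cell-like (16.3%) and dendritic-like cells (11.5%), whose levels are those of the background. In endothelial-like cells 3 of 4 passed (7.62% of genes higher and 11.7% lower), and these 3, Cxcl2, Cxcl3 and Cxcl5, were at 1.31, 1.14 and 0.53 times the B cell-like level of IR, so they too were read as background. The median log2 ratio of NK cell-like genes was 0.20, and the medians of the classes other than NK cell-like and neutrophil-like were within 0.1 of 0.

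Single cells of the leading classes differed in how many ligands they carried. After thinning, 58.2% of 2183 IR neutrophil-like cells had UMIs of exactly 2 ligands, against 4.41% of 227 sham ones. Among fibroblast-like cells 5.62% of 1547 in IR had all 4 ligands (87 cells), and 0 of 3187 in sham. In macrophage/monocyte-like cells exactly 2 ligands were seen in 29.8% of IR and 10.3% of sham cells. The B cell-like share with exactly 2 ligands was 8.10% in IR.

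Within classes the ligands followed cell states, which were also set without CXC genes. Of the IR fibroblast-like cells, 746 fell in a subcluster whose leading genes besides Cxcl3 and Cxcl5 were Csf2, Serpinb2, Tnc, Ccl2, Ptx3, Fosl1, Lif and Ch25h. Of these, Csf2, Ccl2, Ptx3 and Lif encode secreted inflammatory proteins. This subcluster had 5068 CPM of Cxcl1, 1936 of Cxcl2, 2310 of Cxcl3 and 5511 of Cxcl5. Another 557 IR cells, led by Galnt15, Zbtb16 and the clock-controlled genes Dbp and Per3, had 1465, 366, 75.9 and 251 CPM of the same genes. In this second state Cxcl2 and Cxcl3 were below the B cell-like level, while Cxcl1 and Cxcl5 were above it. Sham held 8 cells of the first state and 0 of the second. The sham and IR fibroblast-like cells fell in different clusters, with 3222 sham and 47 IR cells in the largest, 8 and 967 in the next and 2 and 541 in the last, so the fibroblast-like ratios above compare unlike mixtures.

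Among IR macrophage/monocyte-like cells the Thbs1/Arg1 monocyte-derived state (676 cells, none in sham) had the highest levels, with 20401 CPM of Cxcl2 and 4381 of Cxcl3. The Lpl/Gdf15 state (851 cells) had 8913 and 244 CPM, and the Ly6c2 monocyte state (301 cells) had 6779 and 140 CPM. Cxcl1 was 921, 743 and 205 CPM in these 3 states. In sham the MHCII state (1218 cells) had 10034 CPM of Cxcl2, the Lyve1 state (396 cells) 4426 and the interferon state (1174 cells) 3576. A smaller subcluster of the MHCII name held 143 sham cells. Another subcluster also named Ly6c2 monocyte, with 269 sham cells and led by Ly6i, Ly6c2 and Ace, had 228 CPM in sham. It is not the Ly6c2 subcluster of 301 IR cells, so their levels are not a ratio within 1 state. Among sham states of at least 50 cells the highest Cxcl2 level was thus in the MHCII state. Different subclusters held most of this class in the 2 libraries, the MHCII and interferon states in sham and the Lpl/Gdf15 and Thbs1/Arg1 states in IR, so the class ratios compare unlike mixtures.

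Of the IR neutrophil-like cells, the activated state (927 cells) had 60606 CPM of Cxcl2 and 9080 of Cxcl3. The blood-like state, led by the granule genes Ngp, Camp and Mmp8, had 17379 and 992 CPM in 347 IR cells. In sham the blood-like state (54 cells) had 5546 CPM of Cxcl2 and the interferon state (172 cells) 5018. Most sham neutrophil-like cells were thus in the interferon state, which held 5 IR cells, while the activated state held 1 sham cell. The neutrophil-like class ratios therefore compare unlike mixtures too. The blood-like state was present in both libraries, and its Cxcl2 level was higher in IR.

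**Figure D3:**
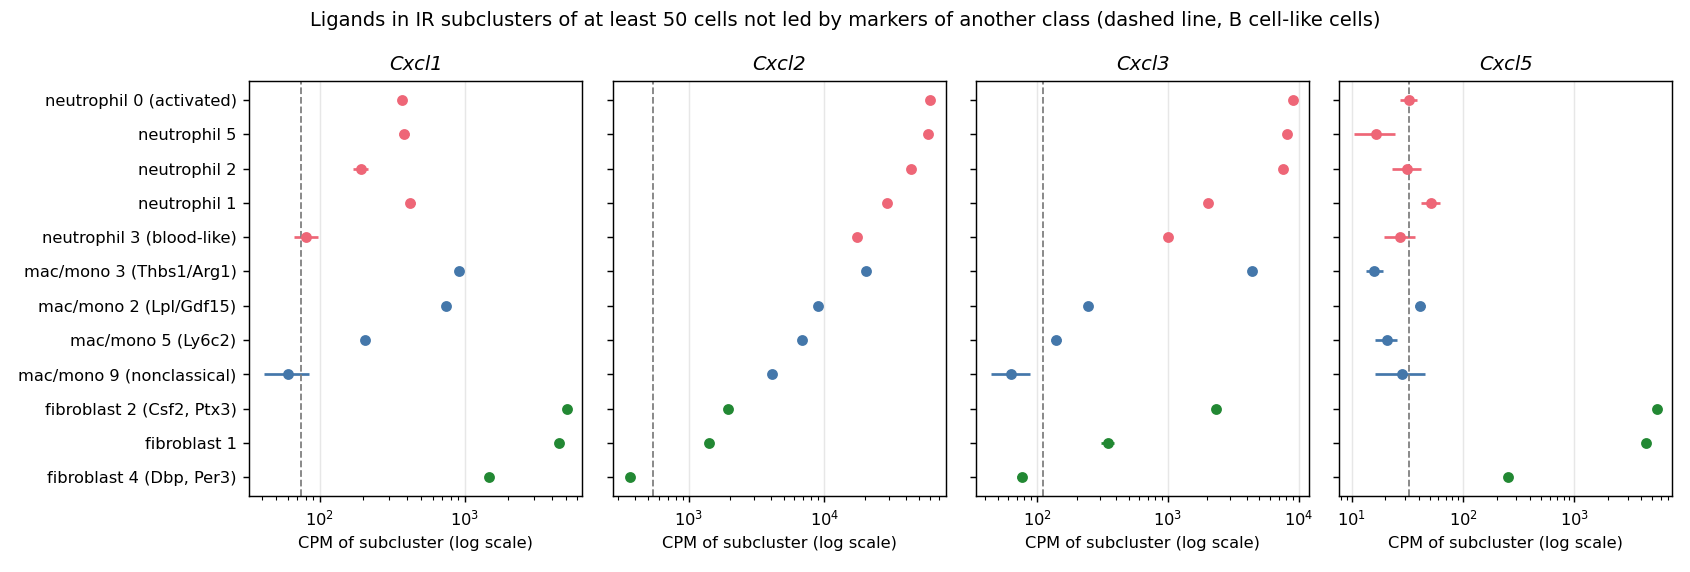
Points give CPM (log axis) of each ligand in the IR subclusters of at least 50 cells that are not led by markers of another class, with 95% counting intervals, red for neutrophil-like, blue for macrophage/monocyte-like and green for fibroblast-like, and the dashed line is the B cell-like level of IR. Cxcl2 spans 17379 to 60606 CPM over the neutrophil-like subclusters, and Cxcl5 stands far above the line only in fibroblast-like ones.

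Markers of other cells moved with some low levels. In IR, 99 mural-like, 46 endothelial-like and 55 fibroblast-like cells fell in subclusters with the neutrophil genes S100a8 and S100a9 among their 10 leading genes. The summed CPM of the 10 neutrophil markers was 820 in fibroblast-like, 1166 in B cell-like, 1940 in endothelial-like and 2410 in mural-like cells of IR, against 142100 in neutrophil-like cells, and the part of these transcripts in the results was not tested. Without the subclusters led by another class's markers, IR mural-like cells had 1109 CPM of Cxcl1, but 267 of Cxcl2, 59.8 of Cxcl3 and 14.6 of Cxcl5, all 3 below the B cell-like level. Endothelial-like cells then had 286 CPM of Cxcl2 and 179 of Cxcl1. Fibroblast-like cells then had 1277 CPM of Cxcl2, 1272 of Cxcl3 and 3204 of Cxcl5.

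Cxcr2 was a neutrophil-like gene. Its level there was 1040 CPM (950 to 1135) in sham and 1077 CPM (1057 to 1097) in IR, a log2 ratio of 0.05 (-0.08 to 0.18). After thinning, 62.6% (55.9 to 68.9) of sham and 62.9% (60.8 to 64.9) of IR neutrophil-like cells had a UMI, against 0.18% and 1.12% of B cell-like cells. Over the whole libraries Cxcr2 was 14.8 CPM in sham and 191 CPM in IR, alongside the larger number of neutrophil-like cells. Over IR subclusters of at least 50 cells the level ran from 949 CPM in the activated state to 1248 CPM in the blood-like state. When cells were typed by their own marker UMIs the sham neutrophil class grew from 237 to 314 cells. Of the added cells, 60 had clustered as macrophage/monocyte-like. The Cxcr2 level of this sham class was 600 CPM and the log2 ratio was 0.84, so the near-equal level rests on how sham neutrophils are set. The near-equal level is also one of unlike mixtures of neutrophil states, and not of the same state in both libraries.

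Outside neutrophil-like cells, macrophage/monocyte-like cells had 171 UMIs of Cxcr2 in sham and 291 in IR, 9.50 and 12.8 CPM. Most of the sham ones lay in a subcluster of 59 sham and 33 IR cells led by Retnlg, S100a9 and S100a8, with 240 and 333 CPM. Without such subclusters IR macrophage/monocyte-like cells had 7.6 CPM, near the B cell-like 6.14. The fibroblast-like level in IR, 4.2 CPM, lay below it.

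Ligand and receptor occurred in the same neutrophils. Of the thinned IR neutrophil-like cells with Cxcr2, 99.1% had a UMI of Cxcl2 and 62.3% of Cxcl3, and of those without Cxcr2 99.1% and 66.0% did. In sham the shares for Cxcl2 were 69.0% with and 74.1% without Cxcr2, and their intervals overlap.

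Ackr1 was rare. The matrices held 66 UMIs in sham and 144 in IR, and in kept cells 55 and 114 of them lay in fibroblast-like cells, at 3.28 CPM (2.47 to 4.27) and 5.32 CPM (4.39 to 6.39). The log2 ratio was 0.70 (0.22 to 1.19), under 2-fold, and it was -0.43 with the upper limit of 2500 genes per cell, which left 2 IR UMIs. Endothelial-like cells had 0 UMIs in both libraries, in 357 and 125 cells, with 95% upper limits of 2.02 CPM in sham and 3.75 CPM in IR. Selp, the adhesion molecule P-selectin of venular endothelium, had a UMI in 11 of the 357 sham and 24 of the 125 IR cells, at 14.8 and 215 CPM. No venous subcluster was named, so the number of venular cells behind these limits is not known.

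The cells with Ackr1 were a fraction of the fibroblast-like cells, 50 in sham and 84 in IR, and 45 and 63 of them had a single UMI. In sham the adventitial subcluster (269 cells) had 19.3 CPM (13.3 to 27.1). The adventitial genes Pi16, Dpp4, Cd248, Sema3c and Ly6c1 were all higher in the cells with Ackr1 than in the other fibroblast-like cells of the same library, with log2 ratios of 1.52 to 2.34 in sham and 1.27 to 2.20 in IR. For the interstitial genes Tcf21, Pdgfra, Lpl, Gsn and Dpep1 the ratios ran from -0.30 to 0.35 and from -0.62 to 0.39. The cells with Ackr1 were also deeper, with medians of 6343 against 5083 UMIs in sham and 15426 against 13087 in IR.

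Ackr1 overlaps Cadm3, an adhesion molecule gene on the same strand, by 493 bases. Cadm3 was also mostly fibroblast-like, at 22.5 CPM in sham and 25.4 CPM in IR. It had a UMI in 23 of the 50 sham cells with Ackr1 and in 247 of the 3182 without, and in 66 of 84 and 198 of 1471 in IR. Whether the Ackr1 UMIs came from Ackr1 or from Cadm3 transcripts cannot be told apart in these counts.

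**Figure D4:**
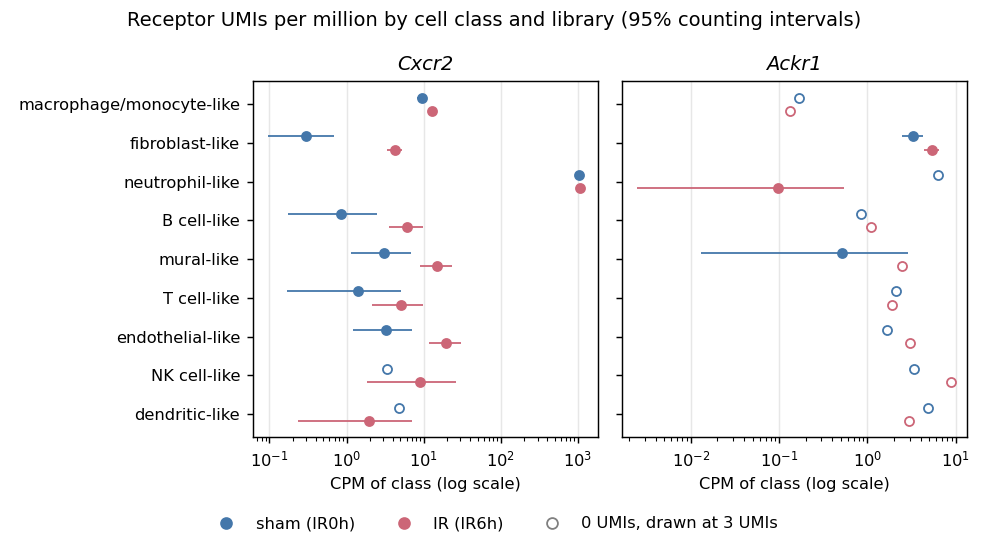
Points give CPM (log axis) of Cxcr2 and Ackr1 in the 9 classes, blue for sham and red for IR, with 95% counting intervals, and open points stand for 0 UMIs drawn at 3. Cxcr2 in neutrophil-like cells lies at 1040 and 1077 CPM, far above the other classes, and Ackr1 passes 3 UMIs only in fibroblast-like cells.

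Among inducers and feedback genes of the ligands, 15 of the 16 listed could be compared in macrophage/monocyte-like cells. Of these, 10 were at least 2-fold higher in IR and 0 lower, beside 9.93% and 14.2% of all genes. Il1a, an alarmin cytokine, went from 6.22 to 249 CPM there, and Il1b from 1598 to 6320 CPM. In neutrophil-like cells 8 of 15 were higher and 1 lower, leaving out 1 gene with 0 sham UMIs. Of all genes compared there, 10.5% were higher, and 17.8% were lower and had UMIs in sham. Nfkbia, an inhibitor of NF-kB that is itself an NF-kB target, had 1807 CPM in sham and 8478 CPM in IR. In fibroblast-like cells 6 of 15 were higher and 0 lower, beside 12.3% and 16.7% of all genes. Il17ra, a subunit of the interleukin-17 receptor, was at 16.9 and 68.0 CPM there, where the IR B cell-like level was 67.1 CPM. The others of the 6 were Il1a (0 and 4.53 CPM), Il1b (12.8 and 158), Tnf (2.27 and 8.44), Il1r1 (51.6 and 132) and Nfkbia (347 and 743). The median log2 ratios of the list were 1.21, 1.13 and 0.89 in these classes, against -0.08, -0.43 and -0.07 for all genes tested, with genes at 0 set at the floor.

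Of 18 other neutrophil attractants, receptors and adhesion partners, 8 were at least 2-fold higher in IR and 2 lower in macrophage/monocyte-like cells, beside 9.93% and 14.2% of all genes. Csf3, the granulocyte growth factor G-CSF, had 10 UMIs in sham and 616 in IR there, 0.56 and 27.1 CPM. In endothelial-like cells 11 of 17 were higher and 0 lower, beside 7.62% and 11.7% of all genes. Sele and Icam1, which encode endothelial adhesion molecules for leukocytes, went from 2.74 to 121 CPM and from 35.6 to 175 CPM. In neutrophil-like cells 4 of 18 were higher and 1 lower. Of all genes compared there, 10.5% were higher, and 17.8% were lower and had UMIs in sham. Icam1 was at 16.7 CPM in sham and 101 CPM in IR, and Ptafr, the receptor for platelet-activating factor, at 362 and 1007 CPM. In fibroblast-like cells 15 of 18 were higher, beside 12.3% of all genes. The largest ratios were those of Csf3, at 0.12 and 8.40 CPM from 2 and 180 UMIs, and Fpr2, at 0.06 and 2.99 CPM. Icam1, with the most UMIs of the list there, had 50.4 CPM in sham and 130 CPM in IR. Also among the 15 were Csf3r and Fpr1, which are neutrophil genes, at 8.72 and 2.61 CPM in IR. The B cell-like level of Csf3r in IR was 14.4 CPM, above the fibroblast-like one.

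Of the other CXC ligands and receptors, 18 of 19 were in the matrices. In macrophage/monocyte-like cells 3 of 13 compared were higher and 4 lower, beside 9.93% and 14.2% of all genes. The largest change was that of Ppbp, at 8.44 CPM in sham and 133 CPM in IR, a log2 ratio of 3.97. Cxcl16 went the other way, at 334 CPM in sham and 127 CPM in IR. In fibroblast-like cells 3 of 10 were higher and 2 lower, beside 12.3% and 16.7%, with the interferon-induced ligand Cxcl10 at 130 and 30.8 CPM. In neutrophil-like cells 2 of 11 were higher, beside 10.5% of all genes. Leaving out 3 genes with 0 sham UMIs, 1 was lower, Cxcr4, the CXCL12 receptor that retains neutrophils in marrow, at 1086 and 439 CPM.

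The members' levels over the 18 class and library units were compared with those of 11725 genes by Pearson's r of log2(CPM + 10), as a description of units that share 2 libraries. The genes most like Cxcl2 were Rab20 (0.95), Nlrp3 (0.94), Lilr4b, Cd14 and Clec4d. Those most like Cxcl5 were Slc6a12 (0.91), Timp1, Gm22, Ptx3 and Ereg. For Cxcl1 they included Clip2 (0.91), Akr1b8, Srxn1 and 1810055G02Rik, and for Cxcl3 they were Etf1 (0.90), Riok3, Zswim4, Ptgs2 and Rffl. Cxcr2 was most like Fpr1 (0.99), Mrgpra2b, Mmp9, Mrgpra2a and Hdc. Cxcl2 and Cxcl3 had an r of 0.85 with each other, and Cxcl2 and Cxcl5 0.31.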

How the data were processed

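The authors deposited 10x UMI counts per gene and barcode (Cell Ranger, mm10; 3.1.0 per the matrix headers), 1 matrix for the 4 samples of each group. Here, cells with at least 200 genes and at most 30% mitochondrial UMIs were kept (11377 sham, 8260 IR). The study's upper limit of 2500 genes would leave 9777 and 4880, fewer than the study states, so it was an alternative. Simulated-doublet scores removed 1058 and 564 cells at an assumed 0.8% per 1000 barcodes. Clusters (Leiden, leidenalg 0.10.2, resolution 0.8, 30 components, 2000 variable genes) gave 26 groups, of which 4 stayed unnamed. The thresholds for naming clusters were set after seeing them. Summed UMIs per class gave CPM with exact Poisson intervals and log2 ratios with exact conditional binomial intervals, and shares of cells have Clopper-Pearson intervals. PCR duplicates were collapsed by UMI. Named genes were the 6 members, 3 lists (in each class, genes with at least 50 UMIs and a 2-fold ratio, largest first) and the 5 genes most like each member (1 of those for Cxcl1 is not reported here), and the Cadm3, venous and Ackr1-cell values and the shared promoter run were chosen after the values were seen. The members and lists were chosen with earlier results of these data known. The ratio step was tested on simulated data. It recovered known ratios, but with few expected UMIs unchanged genes came out lower in the small sham neutrophil sum, in part because 0 UMIs were set at 3, so the filter of at least 20 expected UMIs was added beside the fixed one of 10. Counts used Python 3.11.15 and scipy 1.17.1.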

Additional observations from a re-analysis of the deposited data

How the results depend on the processing

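No paired analysis was possible because each matrix pools its samples, so the numbers 1 to 4 in the titles cannot be matched to cells, and leaving out a sample was not possible either. Of 64 values under 8 alternatives, 48 stayed within the counting interval of the reported value or within 1.5 times the count. Ackr1 in fibroblast-like cells had the opposite direction, -0.43 from 2 IR and 39 sham UMIs, with the upper limit of 2500 genes, which left 228 IR fibroblast-like cells. The log2 ratio of Cxcl1 was 1.51 with that limit, 1.13 with high doublet scores kept, 0.90 with cells typed by their own marker UMIs, 0.92 as a mean over cells, and 1.14 or 1.12 with the median gene set to 0 under the filter of 10 or of 20 UMIs. At 0.90 and 0.92 only 3 of 4 ligands reached 2-fold in fibroblast-like cells, against 4 of 4 otherwise. Cxcl2 in neutrophil-like cells had 3.11 with at most 10% mitochondrial UMIs, 3.29 with typing by marker UMIs, 2.92 as a mean over cells and 3.44 with the median gene at 0. Cxcl3 there had 6.03 with typing by marker UMIs and 5.51 with the median gene at 0, and Cxcr2 had 0.84 and 0.48. Cxcl5 had 7.54 as a mean over cells. The shift behind 3.44, 5.51 and 0.48 comes from genes with few sham UMIs, and with the filter of 20 expected UMIs the 3 values were 3.06, 5.13 and 0.10. That filter and the removal of subclusters led by another class's markers were chosen after seeing the data. The cause of the other differences was not tested. Ackr1 had few UMIs, 55 in sham and 114 in IR fibroblast-like cells.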

Other observations

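The 4 unnamed clusters held 316 sham and 268 IR cells. Together they had 5.29% of the Cxcl2 UMIs of sham, at 3421 CPM, and 0.465% of those of IR, at 5336 CPM. The 10 macrophage/monocyte markers summed to 4005 CPM in the IR ones, of which 194 had the marker UMIs of macrophage/monocyte-like cells.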
